A study of Mus musculus with 4 samples.

Results

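The accessible regions of the short and long arm of human chromosome 1 were compared in HEK293 cells, using a list of ATAC-seq peaks that the authors deposited for their TRAFTAC experiment. Peaks on chromosome 1 were assigned to the short arm (1p) when they ended before position 121700000 and to the long arm (1q) when they started after position 143200000 (GRCh38). Peaks between 629000 and 635000, where the sequence resembles the mitochondrial genome, were left out. This gave 2575 peaks on 1p and 2145 on 1q, hence 4720 of the 48751 peaks in the list (9.68%). Peaks were assigned by position alone, without use of their other values.

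The list comes from 4 ATAC-seq libraries, 2 from cells given a TRAFTAC (a DNA-RNA hybrid meant to bring a transcription factor to the degradation machinery) against NFkB, and 2 from cells given a scrambled TRAFTAC. In both groups, cells were transfected for 6 h with 25 nM of the TRAFTAC and 1 μg/mL of a plasmid for dCas9 fused to HaloTag7. They were then exposed for 19 h to TNF-alpha at 5 ng/mL, which triggers NFkB activation. HP14, a PROTAC that binds the HaloTag, was used at 25 μM over the same time. The protocol label names HP14 or DMSO without saying which library received which, and the study's text names HP14 for the profiled cells. A DNase treatment preceded the harvest, libraries were made from 50000 cells with 8 PCR cycles, and at least 20000000 paired-end reads were sequenced for each. The cells were thus transfected and treated with TNF-alpha in both groups, and an untreated state is not part of the list. The peaks were identified on the 4 libraries together, so that the list holds no value of a single library, and neither the 2 TRAFTACs nor replicates could be compared. The organism label says mouse, but HEK293 is a human line and chromosome 1 peaks reach position 248946410.

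ATAC-seq uses the Tn5 transposase to insert adapters where DNA is not wrapped tightly by nucleosomes, and a peak is a stretch where the resulting fragments pile up, typically at promoters, enhancers and insulator sites. Accessible regions are not spread evenly along a chromosome: they are crowded where genes are dense, such as the distal end of 1p, and scarce in gene-poor stretches. HEK293 is an established line derived from human embryonic kidney, with a rearranged genome in which additional copies of 1q have been described. More copies of a region give more fragments at the same degree of opening, so copy number and accessibility cannot be told apart in pooled fragment counts. Gene positions of GRCh38 were not used here, so that peaks are given by position and neither promoters nor kidney marker genes were examined.

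The density of peaks over the whole of each arm was similar, with slightly more on 1p. The short arm held 21.2 peaks per Mb (95% exact Poisson interval 20.3 to 21.99) over 121.69 Mb, and the long arm 20.3 peaks per Mb (19.4 to 21.2) over the 105.75 Mb up to its last peak. The ratio of 1q to 1p was 0.959 (95% interval 0.905 to 1.02). Peaks covered 1.52% of the length of 1p and 1.48% of that of 1q. All intervals given here cover counting error only, and no test between the arms was made. Since neighbouring peaks are not independent and there are no replicates, they are in general narrower than the true uncertainty. The intervals of ratios of medians are an exception in their construction. They divide opposite limits of the intervals of the arms, and so are wider than 95% intervals for counting error. A ratio of medians whose interval holds 1 therefore does not show that the arms are equal. The ratio depended on which stretches were included. Without the outermost 30 Mb at both chromosome ends it was 1.19 (1.10 to 1.28), with 15.6 peaks per Mb on 1p and 18.5 on 1q, so the order of the arms turned around. Without the 5 Mb of each arm next to the centromere, it was 0.929 (0.876 to 0.986).

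In bins of 1 Mb lying wholly within an arm, 121 on 1p and 104 on 1q, the spread along each arm was far greater than the difference between the arms. The median was 17 peaks per bin on 1p (95% order-statistic interval 14 to 22, quartiles 7 and 30) and 14.5 on 1q (11 to 18, quartiles 8 and 31.5). Bins with at least 40 peaks made up 15.7% of the bins on 1p (95% Wilson interval 10.3% to 23.2%) and 13.5% on 1q, and bins with fewer than 5 peaks made up 14.9% and 13.5%. Of the peaks lying in whole bins, the 31 densest of the 121 bins held 54.5% on 1p, and the 26 densest of the 104 bins held 54.3% on 1q. The places where peaks were crowded differed, as the plot of peaks by bin shows.

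**Figure D1:**
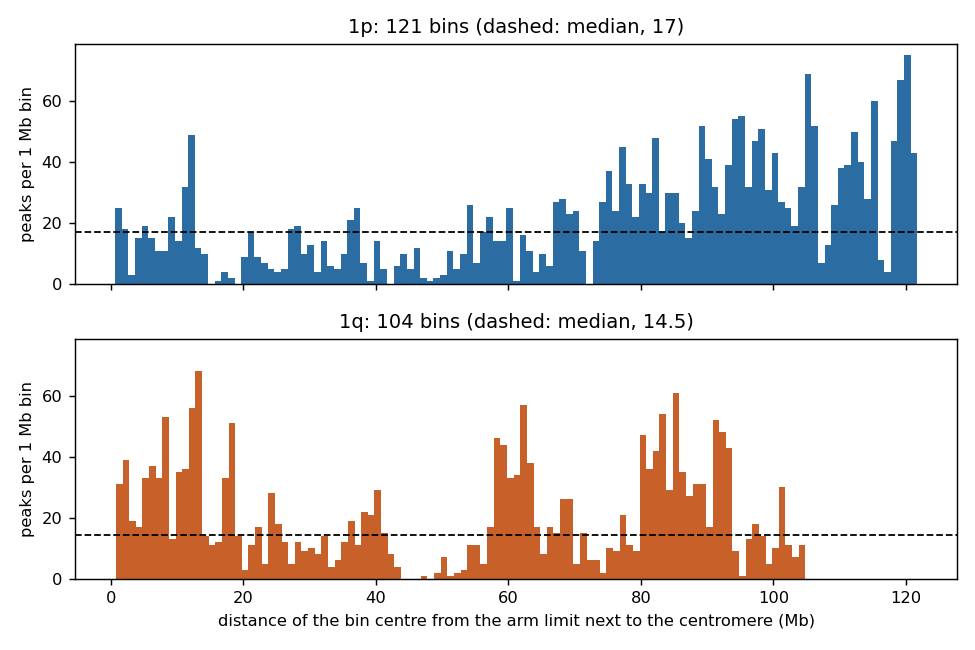
Number of peaks in each bin of 1 Mb (y axis) against the distance of the bin's centre from the arm limit next to the centromere in Mb (x axis), for 1p (top) and 1q (bottom), with the median over bins dashed. The crowded bins of 1p lie in its distal part, up to 75 peaks, while those of 1q fall in separate blocks, up to 68 peaks, divided by an almost empty stretch.

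Both arms were sparsest in their interior, but on 1p the chromosome end was by far the denser side, whereas on 1q it was the side next to the centromere. In segments of 20 Mb, which were chosen after the values had been seen, 1p held 37.1 peaks per Mb in the outermost segment (34.5 to 39.9) and 35.6 in the next. It then held 21.3 peaks per Mb from 40 to 60 Mb, 9.65 from 60 to 80 Mb, 10.1 from 80 to 100 Mb and 13.9 (12.4 to 15.6) in the last 21.7 Mb towards the centromere, a small rise from the lowest segment (8.34 to 11.1). The distal 40 Mb of 1p was thus the most crowded of the segments of either arm. On 1q the corresponding segments from the chromosome end held 21.1, 22.4, 16.9 and 11.1 peaks per Mb. Density then rose again to 27.5 peaks per Mb (25.2 to 29.9) between 80 and 100 Mb from the end and 29.4 (25.1 to 34.2) in the last 5.75 Mb. Within the limits used, 1q was therefore denser than 1p next to the centromere, and the intervals did not overlap. The 243 peaks between the limits were counted in neither arm, and some of them lay directly past the limit of 1p.

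The 3 densest bins of 1p were chr1:1000001-2000000 with 75 peaks, chr1:16000001-17000000 with 69 and chr1:2000001-3000000 with 67. The peaks of the last of these were comparatively weak, with a median fold enrichment of 3.25 over the local background. On 1q the densest bins were chr1:156000001-157000000 with 68 peaks and a median fold enrichment of 7.0, chr1:228000001-229000000 with 61 peaks and a median of 3.42, and chr1:205000001-206000000 with 57 peaks and a median of 5.45. High density thus went with strong peaks in some bins and with weak ones in others. In chr1:228000001-229000000, 19 of the 61 peaks lay over a background of 10 or more times the genome-wide value, as described further on.

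The longest peak-free stretches lay on 1q, but long gaps as a class did not differ much between the arms. The longest of 1q was chr1:186681002-190477919 (3.80 Mb), followed by chr1:190479251-192808464 (2.33 Mb) and chr1:194076867-195590734 (1.51 Mb). The first and second of these were separated by a single peak of 1331 bp, chr1:190477920-190479250. On 1p the longest were chr1:105137879-107056544 (1.92 Mb), chr1:101357680-103106467 (1.75 Mb) and chr1:48777041-50023701 (1.25 Mb). Each arm had 4 bins without a peak, which is 3.31% of the bins on 1p (1.29% to 8.19%) and 3.85% on 1q (1.51% to 9.47%). Those of 1p were scattered, starting at 49000001, 79000001, 102000001 and 106000001. Those of 1q were neighbours, 3 of them covering chr1:187000001-190000000 and the other chr1:191000001-192000000. Gaps of over 500 kb added up to 19.7 Mb in 21 gaps on 1p and to 22.5 Mb in 24 gaps on 1q, and gaps of over 1000 kb to 9.44 Mb in 7 gaps and 9.71 Mb in 5 gaps. Between the arms, no peak was found over 18.0 Mb (chr1:125183124-143184654). Whether reads can be placed in this stretch was not examined, so the missing peaks say nothing about its accessibility. The closeness of single peaks was alike on both arms, with a median distance to the nearest neighbour of 9568 bp on 1p (8962 to 10007) and 9010 bp on 1q (8490 to 9518).

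Peak widths differed between the arms by less than their intervals. The median was 605 bp on 1p (577 to 626, quartiles 370 and 974.5) and 604 bp on 1q (581 to 633, quartiles 376 and 973), with a ratio of 0.998 (0.928 to 1.10). Peaks narrower than 300 bp made up 13.9% (12.6% to 15.3%) and 13.2% (11.9% to 14.7%), and 37 peaks on 1p and 35 on 1q were at least 2000 bp wide. The 3 widest of 1p lay close together near the chromosome end, at chr1:2681126-2688438 (7313 bp), chr1:2652190-2656298 (4109 bp) and chr1:2748400-2751923 (3524 bp). Of the widest on 1q, both chr1:143251412-143256903 (5492 bp) and chr1:143262107-143266058 (3952 bp) lay just inside the limit next to the centromere, and chr1:152213918-152218294 (4377 bp) further along. The folds of these were 4.48, 5.79 and 4.51 on 1p and 9.31, 10.7 and 8.81 on 1q in the order given, but over all peaks of at least 2000 bp the median fold was 6.89 on 1p (5.87 to 7.87) and 6.88 on 1q (6.35 to 8.44).

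The fold enrichment at the summit, a ratio of stacked fragments to the local background, also differed little. Its median was 5.67 on 1p (5.48 to 5.87, quartiles 3.69 and 9.58) and 5.97 on 1q (5.74 to 6.17, quartiles 3.78 and 9.85), a ratio of 1.05 (0.977 to 1.13). A fold of at least 10 was reached by 23.7% of the peaks on 1p and 24.2% on 1q, and one of at least 15 by 3.30% and 3.03%. The −log10 q-value, which grows with both the fold and the number of fragments, had a median of 24.7 on 1p (22.8 to 26.5) and 26.5 on 1q (23.2 to 29.3), a ratio of 1.07 (0.875 to 1.28). Values of at least 100 were found for 23.4% of the 1p peaks and 23.1% of the 1q peaks, and values under 5 for 12.7% and 12.6%. The cumulative distributions of these measures ran nearly on top of each other.

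**Figure D2:**
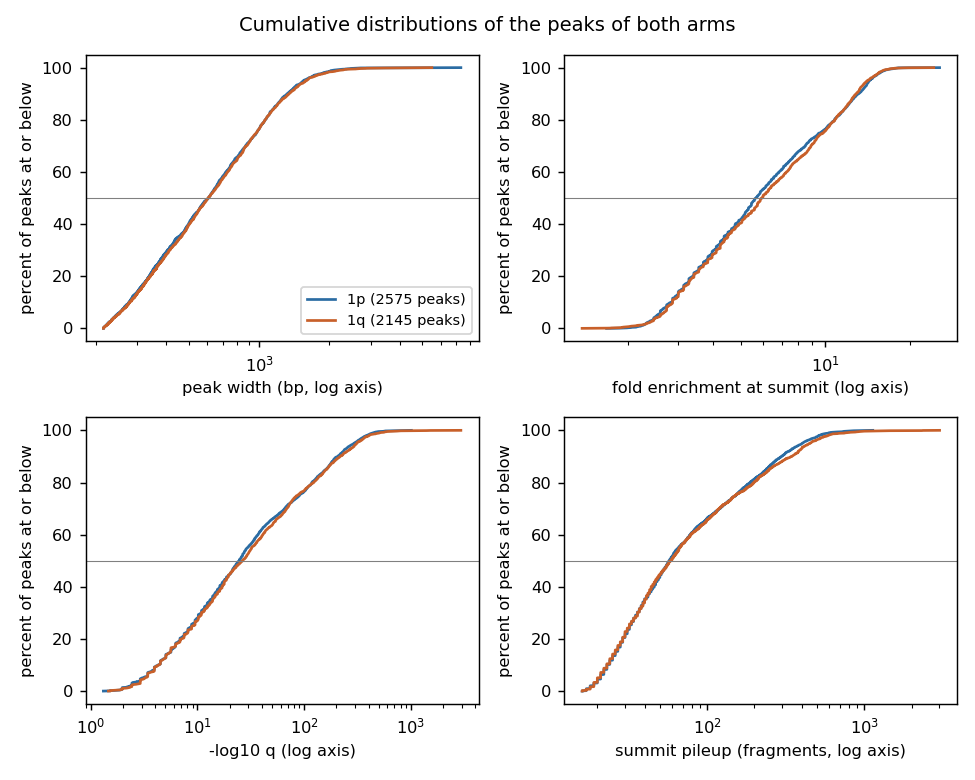
Percent of the 2575 peaks of 1p and the 2145 peaks of 1q (y axes) at or below a given width in bp, fold enrichment, −log10 q-value and summit pileup in fragments (x axes, all logarithmic). The curves of both arms almost coincide at the median (grey line), and separate slightly in the upper part of the pileup, where the 90th percentile was 297.6 fragments on 1p and 346 on 1q.

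Because the fold is relative to the local background, the number of fragments stacked at each summit (the pileup) was recovered from the fold and the p-value, for all 4720 peaks. The pileup is closer to the amount of DNA than the fold, since additional copies of a region also raise its background. The median pileup over the 4 libraries together was 58 fragments on 1p (55 to 60) and 59 on 1q (55 to 62), a ratio of 1.02 (0.917 to 1.13). In the upper tail 1q was higher, with a 90th percentile of 346 fragments (311 to 373) against 297.6 on 1p (279 to 314), and with 12.0% of its peaks at 300 fragments or more (10.7% to 13.4%) against 9.90% (8.81% to 11.1%). This gap was smaller without peaks of high local background. With only peaks whose background was under 10 times the genome-wide value, the 90th percentiles were 301 on 1q and 291.3 on 1p. A peak called over a high background needs a high pileup itself, so leaving such peaks out tends to lower the upper percentiles. What the gap rested on was not tested. The median local background was 9.22 fragments on 1p (8.88 to 9.61) and 8.56 on 1q (8.24 to 8.89), a ratio of 0.928 (0.857 to 1.00). The intervals of the arms overlapped only at their limits. The peaks at the genome-wide value of 6.32 fragments, the lowest that the peak caller uses, made up 28.4% on 1p (26.7% to 30.2%) and 30.1% on 1q (28.2% to 32.1%).

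Among peaks of like width, the median pileups of the arms were close in the classes below 1500 bp. Up to that width pileup rose steeply with width, so matching on width in part matches on pileup as well. The medians were 26 fragments on 1p and 27 on 1q below 300 bp, 38 and 39 from 300 to 600 bp, 84 and 89 from 600 to 1000 bp, and 228.5 and 219 from 1000 to 1500 bp. The wider classes were higher on 1q. From 1500 to 2000 bp the medians were 227 fragments (198 to 258) on 1p and 300 (248 to 359) on 1q, in 121 and 101 peaks. For wider peaks they were 192 (137 to 255) and 277 (211 to 333), in 37 and 35 peaks. Peaks at the genome-wide background had a median pileup of 31 fragments on either arm.

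In crowded bins the local background was higher than in sparse bins, on 1p as on 1q. From bins of 1 to 9 peaks, over 10 to 40, to over 40, the median local background went from 6.32 over 8.07 to 12.0 fragments on 1p and from 6.32 over 7.53 to 10.7 on 1q. The share of peaks at the genome-wide background fell from 57.2% to 13.2% on 1p and from 54.3% to 13.7% on 1q. The median width went from 496 (424 to 616) over 583 to 634.5 bp (606 to 660) on 1p, and from 654 (543 to 747) over 593 to 617.5 bp (573 to 664) on 1q. The median fold was 5.76, 5.91 and 5.30 on 1p and 6.94, 6.10 and 5.61 on 1q. Across bins with at least 5 peaks, Spearman's rho between the number of peaks and the median background was 0.52 on 1p (103 bins) and 0.54 on 1q (90 bins), while it was -0.22 and -0.17 for the median fold and 0.01 and -0.03 for the median width. These are descriptions across neighbouring bins of the same pooled libraries, and the fragments of nearby peaks themselves enter the background.

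While the medians of the whole arms were close, the pileup changed with position along 1q. The median rose from 44 fragments (39 to 49) in the outermost 20 Mb to 78 (68 to 93) between 80 and 100 Mb from the end and 86 (61 to 113) in the 5.75 Mb next to the centromere. The segments in between had medians of 52 to 56 fragments. On 1p the medians were between 48 and 63.5 fragments in all 6 segments. The highest, 63.5 (54 to 74) next to the centromere, was close to the 62 (58 to 68) found between 20 and 40 Mb from the end. Peaks whose −log10 q-value reached 100 made up 16.9% of the outermost segment of 1q and 30.0% (26.3% to 34.0%) and 37.3% (30.3% to 44.8%) of its innermost segments. That share also differed along 1p, with 19.1% (16.5% to 22.1%) in the outermost segment. It was 31.7% (25.7% to 38.4%) from 80 to 100 Mb and 26.8% (22.1% to 32.1%) next to the centromere. The median fold was higher next to the centromere than in the outermost segment on both arms. On 1p it went from 4.84 (4.51 to 5.18) to 7.08 (6.64 to 7.68). On 1q it went from 4.83 (4.37 to 5.43) to 7.54 (6.26 to 9.15). Width moved with the pileup, from a median of 525 bp in the outermost segment of 1q to 698.5 and 751 bp in the innermost ones. In peaks of 600 to 1000 bp alone, the median pileup was 77.5 fragments (67 to 90) in the outermost segment, 119.5 (101 to 142) between 80 and 100 Mb and 96 (60 to 117) in the last 5.75 Mb. In peaks of 300 to 600 bp it was 32 (28 to 36), 44 (40 to 49) and 37 (30 to 45). At like width, the intervals of the segment next to the centromere thus overlapped those of the outermost one, and those of the segment from 80 to 100 Mb did not. With only peaks of a background under 10 times the genome-wide value, the medians were 42 fragments in the outermost and 77 and 78 in the innermost segments. What copy number or the density of promoters contribute to this pattern was not tested.

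**Figure D3:**
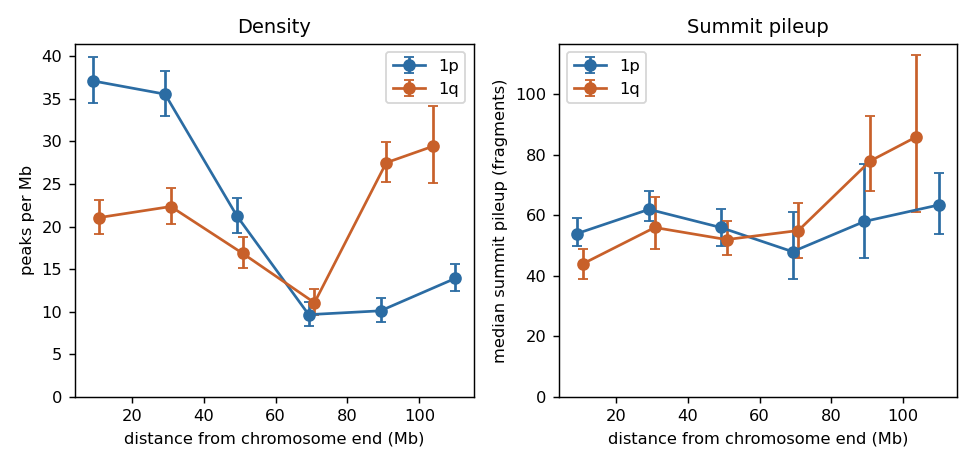
Peaks per Mb (left, with 95% Poisson intervals) and median summit pileup in fragments (right, with 95% order-statistic intervals) in segments of 20 Mb against their distance from the chromosome end in Mb, for 1p and 1q. Density on 1p is highest at the chromosome end, at 37.1 peaks per Mb, and on 1q both density and pileup are highest in the segments next to the centromere, at 27.5 and 29.4 peaks per Mb and 78 and 86 fragments.

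The local background was 10 or more times the genome-wide value in 50 peaks on 1q, which is 2.33% of the arm's peaks (1.77% to 3.06%), and in 17 on 1p, or 0.660% (0.413% to 1.05%). On chromosomes 2 to 22 together the share was 1.27%, but it ranged from 0% to 5.87% with a median of 0.559%, and 10 of these chromosomes lay above 1p and 4 above 1q. When such peaks within 100 kb of each other were joined into runs, the 17 of 1p formed 10 runs, the largest of 4 peaks (chr1:940108-1002226). On 1q, 26 of the 50 lay in 2 runs, one of 18 peaks at chr1:228608465-228646703 and one of 8 peaks at chr1:161440220-161471241.

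The run of 18 peaks, described in detail after its values had been seen, spanned 38.2 kb. Its pileups were between 363 and 624 fragments (median 564), but its background was between 138 and 253 (median 218), so that the fold was only 1.74 to 4.27 (median 2.47). The peak before it, chr1:228557890-228558340, had a pileup of 65 fragments and a background of 21.2, and the one after it, chr1:228653222-228653664, had 29 and 7.35. Many of the summits, though not all, followed each other at similar distances. The median of the 17 steps was 2240 bp, 4 steps were of 2240 or 2241 bp, and 10 were within 5% of a whole multiple of 2240 bp. Of the others, 5 were 1003 to 1282 bp long. The length of 2240 bp was taken from these same steps, so matches to it are partly built in. The long arm of chromosome 1 is known to carry the tandem array of 5S ribosomal RNA genes, but gene positions were not used here and the identity of the run was not tested.

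**Figure D4:**
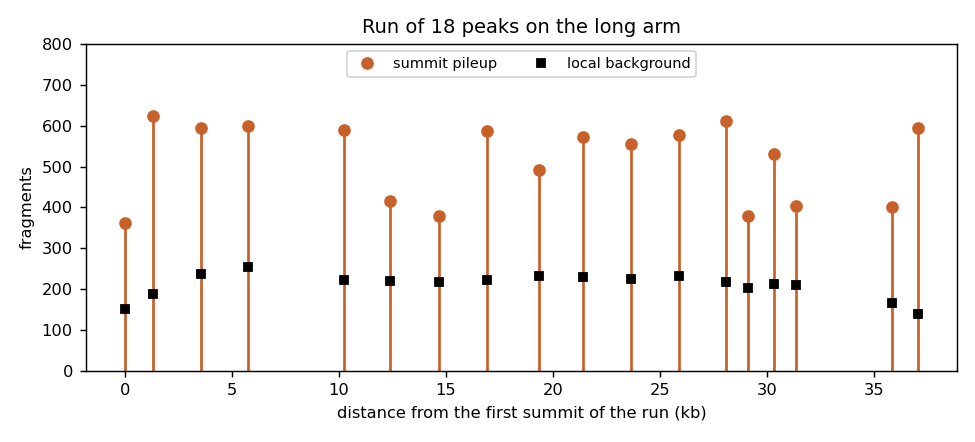
Summit pileup (circles) and local background (squares) in fragments for each of the 18 peaks of the run on 1q, against the distance of its summit from the first summit in kb. Many summits are about 2240 bp apart, and the background of 138 to 253 fragments lies well above the genome-wide 6.32.

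The run of 8 peaks, which spanned 31.0 kb, was different, with a median fold of 6.42 and pileups from 170 to 2361 fragments over a background of 70.5 to 335. It held a pair of the strongest peaks of 1q, chr1:161469156-161470522 (−log10 q-value 1518, with 2361 fragments) and chr1:161454371-161456357 (1401, with 2328 fragments).

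The strongest single peaks reached higher values on 1q than on 1p. The highest −log10 q-value of 1q was 2927, in a peak of only 307 bp (chr1:236097103-236097409) where 3015 fragments were stacked and the fold was 24.3. It was followed by the 2 peaks of the run of 8, by chr1:248945683-248946410, the last peak of the chromosome, with 1297 and a fold of 19.8, and by chr1:228165295-228166597 with 802.5 and a fold of 13.0. On 1p the highest was 1008, in the first peak of the chromosome (chr1:9997-10517), with 1133 fragments and a fold of 19.8. Both arms thus had one of their 5 highest values in the peak closest to the tip of the chromosome. The second on 1p was again very narrow, with 314 bp, 814 fragments and the highest fold of both arms, 25.4 (chr1:91387235-91387548, −log10 q-value 813). The others were chr1:16740111-16741452 with 791, chr1:16666041-16667355 with 715 and chr1:44673873-44674925 with 633. The third highest folds were 18.2 on 1p (chr1:37595507-37596353) and 18.8 on 1q (chr1:209784256-209785066), in peaks of 297 and 237 fragments. The bulk of strong peaks was similar in number, since 4.66% of the peaks of 1p and 5.55% of those of 1q reached a −log10 q-value of 300.

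The other autosomes show how far such values vary between chromosomes. Among chromosomes 2 to 22, the density ranged from 7.26 to 54.5 peaks per Mb with a median of 15.5, and 3 were denser than 1p and 4 denser than 1q. These densities are over the length up to the last peak, centromeres included, whereas the arms leave out the stretch between them, so the ranks are approximate (chromosome 16 had 21.0 peaks per Mb). The median width ranged from 551 to 670 bp, with 5 chromosomes above either arm. The median fold ranged from 4.92 to 6.67, with 11 chromosomes above 1p and 7 above 1q, and the median pileup from 48 to 74 fragments, with 7 above 1p and 6 above 1q. For the 90th percentile of the pileup, which ranged from 219.3 to 420.7 fragments, 7 chromosomes were above 1p and 3 above 1q. In each of these measures, both arms lay within the range of the other autosomes.

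**Figure D5:**
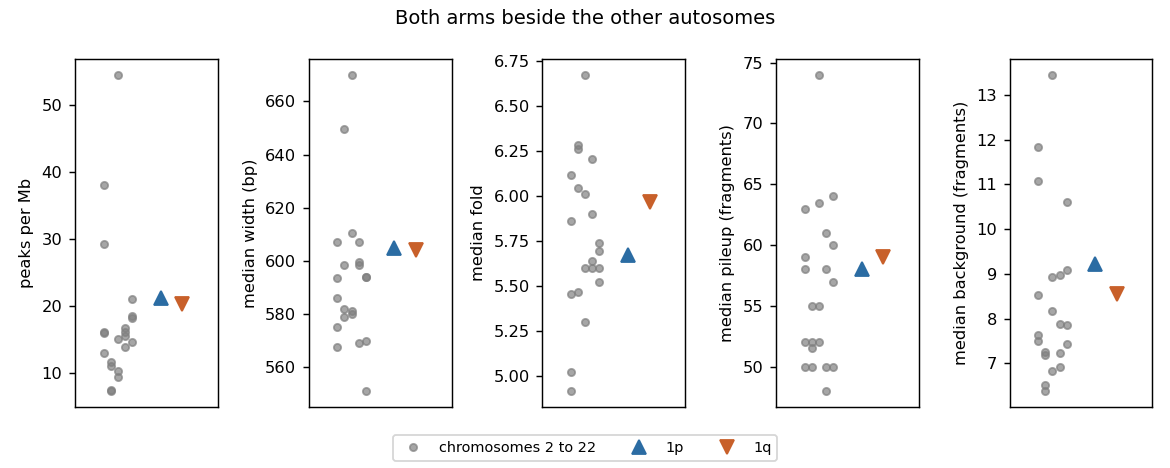
Peaks per Mb, median width in bp, median fold, median pileup and median local background in fragments (y axes) for the 21 other autosomes (grey circles) and for 1p and 1q (triangles); horizontal positions only separate the points. Both arms lie within the range of the other autosomes in every panel, with 21.2 and 20.3 peaks per Mb; the density of the other autosomes includes their centromeres.

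At the limits that define the arms, the last peak of 1p was chr1:121518898-121519895 (fold 13.4, −log10 q-value 111.3) and the first peak beyond the limit chr1:121743346-121743694 (4.10 and 8.82). The last peak before the limit of 1q was chr1:143192266-143195727 (8.05 and 78.5) and the first peak inside it chr1:143200200-143200428 (4.91 and 26.1).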

How the data were processed

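The data were 1 list of ATAC-seq peaks from 4 HEK293 libraries. The authors trimmed reads with Trimmomatic 0.38, aligned them with Bowtie2 2.3.4.3, marked duplicates with Picard 2.18.27 and identified peaks with MACS2 2.2.5; the build is GRCh38.p10 (tools and build from the submitters' processing notes and the study's methods). For each peak the authors deposited start, end, summit position, a linear fold ratio of the summit over its background, the −log10 p-value, the −log10 q-value and a score. The score was not used here. Columns of single samples number 0, so there are no replicates and no tests, and how deeply each library was sequenced cannot be read from the list. The highest q-value was 0.0487, and stricter limits were tried as alternatives. Removal of blacklisted regions is described in the methods and was not checked here.

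Coordinates are 1-based. Peaks were placed in bins by their midpoint. Pileup and local background were recovered as the whole number of fragments that, with a pseudocount of 1, gives the listed −log10 p-value within 0.001 under a Poisson distribution, which was tested on simulated data. Python 3.11.15, numpy 2.4.6, pandas 2.3.3, scipy 1.17.1 and matplotlib 3.10.9 were used.

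The members, segments and lists were chosen with earlier results of these data known. Single peaks, bins and gaps named are, in each arm, the 5 highest −log10 q-values, the 3 highest folds, the 3 widest peaks, the 3 densest bins and the 3 longest peak-free stretches, and others are said to be chosen later or are neighbours of these. Promoters, named genes, marker genes and the arms of other chromosomes had been planned but were not analysed here, because the reference given was of the mouse.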

Additional observations from a re-analysis of the deposited data

Results flagged for a closer look

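Peaks were also present in the parts of chromosome 1 that the comparison of the arms does not use. Both counts are above the limit of 3 that a count of 0 allows, which is a low bar. There was no ground to expect a count of 0 in either part, so exceeding it shows only that peaks are present. The list gives no value for the scrambled libraries alone.

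Between the limits of the arms lay 243 peaks. They were narrower and weaker than those of the arms, with a median width of 424 bp, a median fold enrichment of 4.24 and a median pileup of 30 fragments (29 to 33), and 89.7% of them were at the genome-wide background. They were also closer together, with a median distance to the nearest neighbour of 2231 bp. Among them the highest −log10 q-value, 447.6, belonged to chr1:125178879-125183123, which borders the peak-free 18.0 Mb.

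In the stretch left out for its resemblance to the mitochondrial genome lay 4 peaks, with folds of 2.35 to 5.16 and −log10 q-values of 444.5 to 2903. The recovered pileups of chr1:630778-631358 and chr1:631889-632292 were 3680 and 4922 fragments, and no whole number matched the other 2 peaks.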

How the results depend on the processing

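Of 105 values computed under alternatives, 77 stayed within the interval of the main value and 28 moved out of it. The ratios of 1q to 1p stayed within their intervals in 30 of 31 cases, namely 0.983 to 1.06 for width, 1.00 to 1.06 for fold, 1.04 to 1.13 for −log10 q-value and 1.00 to 1.08 for pileup, so that only the ratio of widths fell on both sides of 1 among these. Staying within is a weak check, because the intervals of ratios of medians are wide by construction. The alternatives are also mostly subsets of the same peaks. The density ratio of 0.959 was 1.19 without the outermost 30 Mb, a stretch that holds the crowded end of 1p. Without peaks of high background it was 0.943 (0.889 to 0.999), and without the bins holding 5 or more such peaks 0.941 (0.887 to 0.999), so that, as without the innermost 5 Mb, the interval no longer held 1. In bins of 5 Mb the median was 21 peaks per Mb on 1q and 16.6 on 1p, against 14.5 and 17 in bins of 1 Mb, so the order of these medians depended on the bin size. In bins of 0.5 Mb, 8.23% of bins on 1p and 9.52% on 1q had no peak, since smaller bins are more often empty. The 90th percentile of the pileup on 1q, 346, was 301 without peaks of high background and 306.8 without the bins that hold them. The alternatives on bins of high background, on bins of 10 to 40 peaks and, for the pileup, on a background under 10 times the genome-wide value were chosen after seeing the data.

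No paired analysis was possible because values of the 4 libraries were pooled. Leaving out single replicates was not run for the same reason, nor the alternative for promoters, as gene positions were not used here. The pooled depth limits the list to pileups of at least 16 fragments.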
